A study of Rattus norvegicus with 37 samples.

Results

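The immediate early genes Egr1, Fos, Jun, Junb, Myc, Nr4a1 and Atf3 were followed in liver RNA of single rats after spinal cord injury (SCI). They were chosen by their Ensembl gene identifiers, from a list drawn up with earlier results of these counts known, and make up 7 of the 24613 genes in the count table. Poly-A RNA of 37 female Sprague-Dawley rats, 8 to 9 weeks old at the start by a weight-based estimate, was sequenced in 2 sample sets, with no genotype beyond the strain given. SCI + In-Cage Activity held 3 groups of 5 rats: No SCI + Standard (uninjured, standard cage), CONT SCI + Tiny and CONT SCI + Large (contusion at vertebral level T2, housed in tiny or large cages). SCI + Exercise held uninjured rats (No SCI, n = 4), sedentary contused rats (CONT SCI, n = 4), rats with a complete transection at T2 (TX SCI, n = 4), and contused rats trained by swimming (CONT SCI + SWIM, n = 5) or shallow water walking (CONT SCI + SWW, n = 5), all labelled as kept in tiny cages. By the labels, injured rats were sampled 11.5 weeks after injury, except the TX SCI rats at 8.5 weeks, and uninjured rats at an equivalent age, and training began on day 10 and ran for 8 weeks on 5 days a week. The study's text gives a later start, a longer course and a later collection for the trained rats, so that training and time after injury may differ together. Injured rats also received an anaesthetic, gentamicin and buprenorphine around surgery.

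Immediate early genes are transcribed within minutes of a signal reaching a cell, without the need for newly made protein, and most encode transcription factors that act on later genes. Their transcripts are short-lived, so that their level in a tissue follows recent signalling. In liver they are known for their rise after partial removal of the organ, after feeding or hormone changes, and under cell stress.

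The libraries held 20066978 to 25130252 counted reads in the In-Cage set and 26190364 to 36761953 in the Exercise set, so the sets did not overlap in depth, and 13648 to 15706 genes had a read. Within groups, no library was a copy of another, since each of the 68 pairs differed by more than sampling noise. The 7 genes passed the filter on low counts in each of 11 comparisons of 2 groups, and their raw counts ran from 14 for Nr4a1 in the CONT SCI + Large replicate 1 liver to 12492 for Jun in the CONT SCI + SWIM replicate 5 liver. Levels are given as CPM, the counts of a gene scaled to the size of its library, which cannot be compared between genes because they are not divided by gene length. Cell type markers were not analysed here, because no table paired the identifiers with gene names. In whole liver RNA, fewer cells of a type that carries a transcript and less of that transcript per cell cannot be told apart.

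Promoter sequence was at hand for Egr1, Junb and Nr4a1, 3 of the 7 genes, from RefSeq on the GRCr8 build. They are shown because no other promoter of the 7 genes was at hand. Of these, Egr1 and Junb passed the test in comparisons below and Nr4a1 varied most between rats. Each run is the 250 bases before the gene's start, on the plus strand of chr18:26736828-26737077 for Egr1, chr19:40080876-40081125 for Junb and chr7:134259888-134260137 for Nr4a1. Capitals mark matches, on either strand, to the cAMP response element (CRE, TGACGTCA), the AP-1 site (TGACTCA or TGAGTCA), the EGR site (GCGGGGGCG or GCGTGGGCG, whose letters overlap those of GC boxes) and the CArG box bound by serum response factor.
Egr1: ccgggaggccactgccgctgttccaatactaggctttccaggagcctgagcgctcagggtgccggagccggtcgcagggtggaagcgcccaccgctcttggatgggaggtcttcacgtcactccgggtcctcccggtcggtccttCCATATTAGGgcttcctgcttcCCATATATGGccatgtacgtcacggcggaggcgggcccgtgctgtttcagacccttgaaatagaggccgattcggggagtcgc
Junb: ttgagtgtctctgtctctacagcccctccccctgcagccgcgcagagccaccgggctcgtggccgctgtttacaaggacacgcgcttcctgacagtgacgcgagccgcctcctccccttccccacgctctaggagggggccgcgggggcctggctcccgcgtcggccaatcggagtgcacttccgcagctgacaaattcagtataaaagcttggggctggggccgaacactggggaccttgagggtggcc
Nr4a1: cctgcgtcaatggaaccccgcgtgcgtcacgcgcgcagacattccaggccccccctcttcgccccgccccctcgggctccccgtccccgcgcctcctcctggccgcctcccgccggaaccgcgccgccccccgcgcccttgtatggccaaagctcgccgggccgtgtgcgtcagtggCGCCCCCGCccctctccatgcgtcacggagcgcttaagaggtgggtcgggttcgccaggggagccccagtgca
The Egr1 run held 2 CArG boxes, at 105 to 96 and at 83 to 74 bases before the start. The Nr4a1 run held 1 EGR match, at 73 to 65 bases before the start, and the Junb run held 0 matches to these letters. Among 33469 promoter runs of the same length, 1.5% held a CArG box, 2.85% an EGR match, 4.05% an AP-1 match and 1.59% a CRE. A match describes letters only and was not tied to any change in RNA.

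Egr1 (ENSRNOG00000019422), a zinc finger factor and classical target of serum response factor, had its 2 highest group means in the uninjured livers of either set. In the No SCI + Standard livers it stood at 46.8, 46.3, 73.6, 67.6 and 23.99 CPM for replicates 1 to 5 (mean 51.7 ± 19.7 SD, n = 5). In the CONT SCI + Tiny livers it stood at 21.9, 8.00, 12.5, 5.38 and 8.45 CPM (11.2 ± 6.49, n = 5). All contused rats in tiny cages lay below all uninjured rats of that set, with the closest values in CONT SCI + Tiny replicate 1 and No SCI + Standard replicate 5. Egr1 fell by 2.21 ± 0.40 (SE) on the log2 scale, with an adjusted p of 0.0243 by edgeR's quasi-likelihood test. It was 1 of the 7 genes to pass, in a comparison in which 12.5% of 11859 genes passed, and the only one of the 7 whose groups did not overlap downwards, as 3.58% of all genes did. At an unadjusted p under 0.05 the 7 genes gave 2, beside 34.3% of all genes, and DESeq2 called 2, beside 14.7% of the 17172 genes it gave a p-value. The median difference of the 7 genes was -0.46, beside -0.0036 over all genes, and 6 of 7 were negative, Junb being positive. That median ranged from -1.04 without CONT SCI + Tiny replicate 1 to -0.20 without CONT SCI + Tiny replicate 3. The Egr1 call was lost without CONT SCI + Tiny replicate 3 (edgeR adjusted p = 0.0634), without No SCI + Standard replicate 4 (0.0600), and when the 3 groups of the set shared one fit (0.0541), while the difference stayed between -2.61 and -2.04 in all 10 fits that left out 1 rat. Cage and injury differ together between these groups. The number of genes called over the whole table was itself unsteady, from 15 without No SCI + Standard replicate 4 to 2998 without No SCI + Standard replicate 1.

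The Exercise set compared contused with uninjured rats in other animals, here with both groups labelled as kept in tiny cages. Egr1 stood at 78.4, 42.5, 71.5 and 23.8 CPM in the No SCI livers (54.1 ± 25.5, n = 4) and at 11.6, 4.02, 10.4 and 12.9 CPM in the CONT SCI livers (9.72 ± 3.93, n = 4). Again the groups did not overlap, as was so downwards for 1.32% of 12482 genes. The fitted difference was -2.47 ± 0.43 (SE), the 7th smallest p of 12482 genes, but its adjusted p by edgeR was 0.322, in a comparison where 0.00801% of genes passed. DESeq2, run as an alternative, gave Egr1 an adjusted p of 4.1e-07 for the same difference, where it called 0.357% of the genes it tested.

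Mean Egr1 in the other groups lay between those of the uninjured and the tiny-cage contused rats. The CONT SCI + Large livers held 3.55, 10.4, 64.8, 24.4 and 7.45 CPM, so that replicates 3 and 4 were within the range of the No SCI + Standard rats and the other 3 rats below it. TX SCI livers held 28.8, 13.3, 20.8 and 20.9 CPM. The CONT SCI + SWIM livers held 22.0, 6.91, 16.1, 14.1 and 70.4 CPM, and the CONT SCI + SWW livers 6.69, 14.1, 20.2, 18.5 and 26.04 CPM. When the 8 groups were ordered by mean (No SCI, No SCI + Standard, CONT SCI + SWIM, CONT SCI + Large, TX SCI, CONT SCI + SWW, CONT SCI + Tiny, CONT SCI), all 7 pairs of neighbours overlapped in range, and the same held for each of the other 6 genes in its own order. The plot of CPM by rat shows these levels for the 7 genes.

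**Figure D1:**
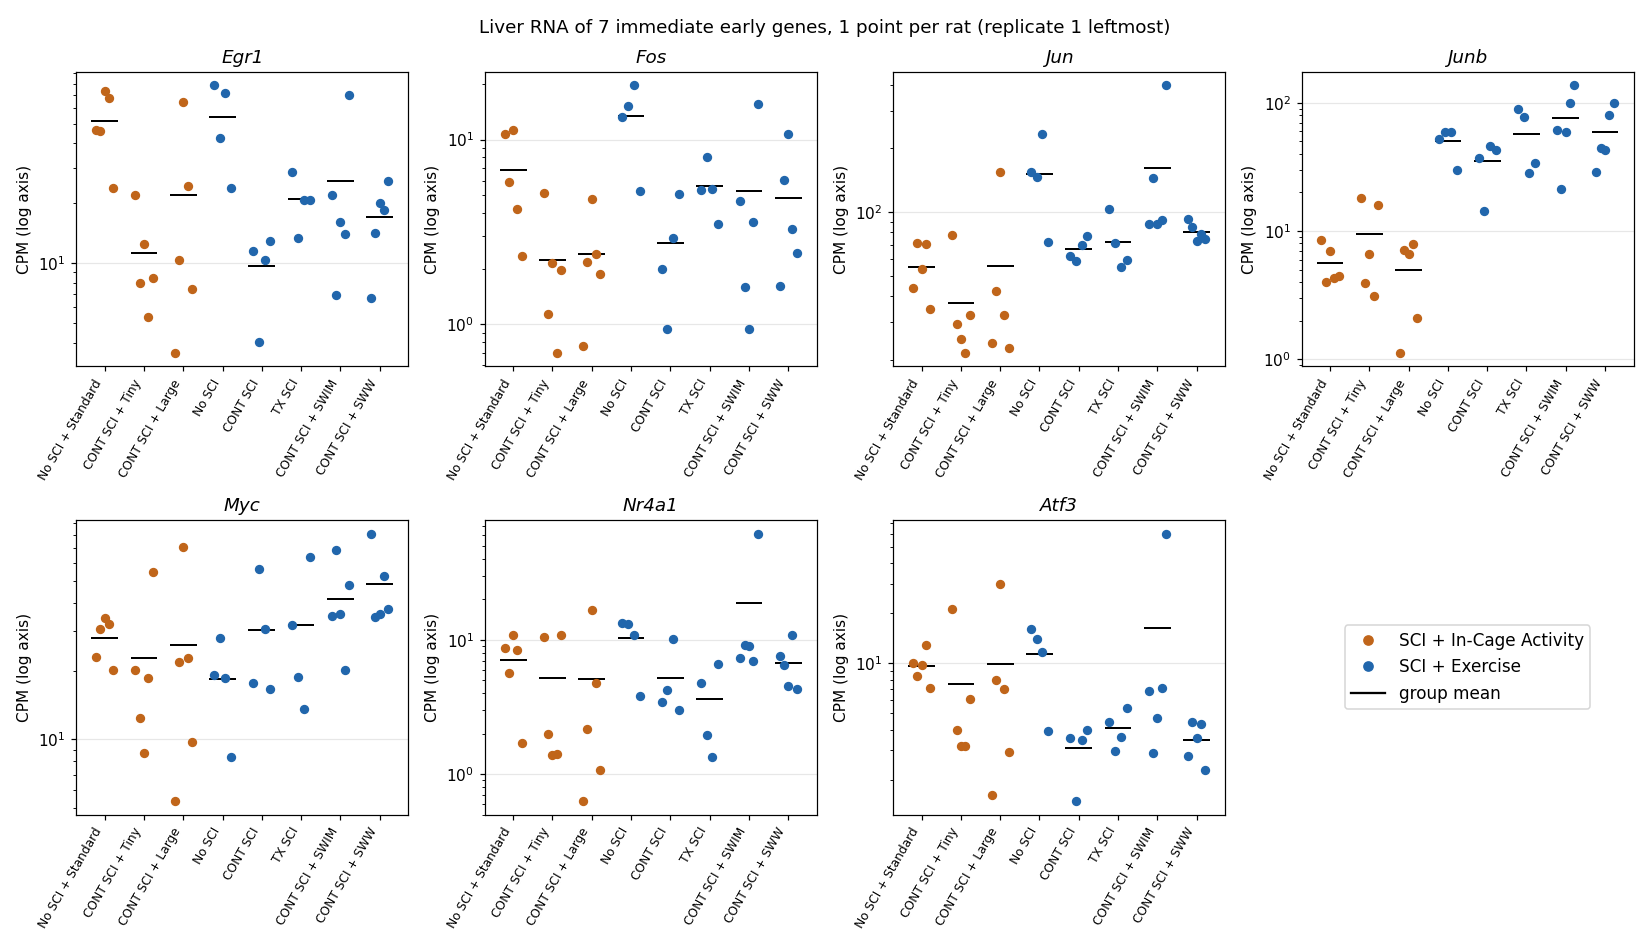
CPM on a log axis for each of the 7 genes, 1 point per rat, with the 8 groups along the horizontal axis, the group mean as a black bar and the 2 sample sets in different colours. Egr1 was between 23.8 and 78.4 CPM in the 9 uninjured rats, Junb was at most 18.1 CPM in the In-Cage set and at least 14.4 CPM in the Exercise set, and a single CONT SCI + SWIM rat reached 398 CPM in Jun.

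Fos (ENSRNOG00000008015), Jun (ENSRNOG00000026293) and Junb (ENSRNOG00000042838) encode partners of the dimeric transcription factor AP-1. Fos stood at 10.7, 5.89, 11.2, 4.19 and 2.33 CPM in the No SCI + Standard livers (6.86 ± 3.94, n = 5), at 5.17, 1.14, 2.15, 0.7 and 1.98 CPM in the CONT SCI + Tiny livers (2.23 ± 1.75, n = 5), and at 0.763, 2.16, 4.77, 2.42 and 1.86 CPM in the CONT SCI + Large livers (2.39 ± 1.47, n = 5). Most contused rats lay below most uninjured rats, with overlap at No SCI + Standard replicates 4 and 5. The difference was -1.63 ± 0.55 (SE) in tiny cages (edgeR adjusted p = 0.0656) and -1.53 ± 0.47 in large cages (edgeR adjusted p = 0.0863). DESeq2 called both, with adjusted p of 0.0385 and 0.0164, where it called 14.7% and 8.01% of the genes it tested. The tiny-cage and large-cage comparisons share their uninjured rats.

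In the Exercise set, Fos stood at 13.3, 15.1, 19.7 and 5.25 CPM in the No SCI livers (13.3 ± 6.02, n = 4) and at 2.00, 0.941, 2.95 and 5.06 CPM in the CONT SCI livers (2.74 ± 1.75, n = 4). These groups did not overlap, as was so downwards for 1.32% of all genes, though No SCI replicate 4 and CONT SCI replicate 4 lay close together. TX SCI livers held 5.35, 8.02, 5.41 and 3.49 CPM, overlapping both groups. CONT SCI + SWIM livers ran from 0.947 to 15.5 CPM and CONT SCI + SWW livers from 1.62 to 10.7 CPM, both overlapping the CONT SCI rats.

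Jun stood at 154, 146, 235 and 72.5 CPM in the No SCI livers (152 ± 66.4, n = 4). The CONT SCI livers held 61.7, 58.9, 69.9 and 76.9 CPM (66.9 ± 8.18, n = 4), below 3 of the 4 uninjured rats and on either side of the fourth. In the CONT SCI + SWIM livers Jun stood at 87.3, 145, 87.6, 91.4 and 398 CPM (162 ± 134, n = 5), all above the CONT SCI rats, as was so for 2.66% of all genes. The CONT SCI + SWW livers ran from 73.1 to 92.5 CPM. In the In-Cage set Jun ran from 21.5 to 155 CPM, with CONT SCI + Large replicate 3 highest.

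Junb was the gene with the clearest shift between the sets. It stood at 8.56, 4.00, 6.93, 4.35 and 4.43 CPM in the No SCI + Standard livers (5.65 ± 2.00, n = 5) and at 52.5, 59.4, 58.9 and 30.02 CPM in the No SCI livers (50.2 ± 13.8, n = 4). Over all conditions the 15 In-Cage rats held 1.12 to 18.1 CPM and the 22 Exercise rats 14.4 to 137 CPM. Only CONT SCI + Tiny replicates 1 and 5, at 18.1 and 15.9 CPM, reached the range of the Exercise rats, whose lowest was CONT SCI replicate 2.

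Between the uninjured groups of the 2 sets, Junb was higher in the Exercise set by 3.11 ± 0.26 (SE) on the log2 scale (edgeR adjusted p = 1.1e-05) and Jun by 1.43 ± 0.30 (edgeR adjusted p = 0.00210). These were 2 of the 7 genes, against 51.4% of 12174 genes called in that comparison, and both had no overlap upwards, as had 21.9% of all genes. Jun and Junb were called in all 9 fits that left out 1 rat, and Fos was also called higher without No SCI replicate 4. Myc went the other way and was called lower in the Exercise set without No SCI replicate 2 (-0.90). Between the sedentary contused rats in tiny cages of the 2 sets, Junb was the only one of the 7 to pass, higher in the Exercise set by 1.84 ± 0.61 (edgeR adjusted p = 0.0393), where 45.1% of 12199 genes were called. Its levels there were 37.4, 14.4, 45.7 and 43.0 CPM in CONT SCI against 18.1, 3.96, 6.67, 3.11 and 15.9 CPM in CONT SCI + Tiny. That call held in 3 of the 9 fits without 1 rat and was lost without CONT SCI + Tiny replicate 2, 3 or 4, or CONT SCI replicate 1, 3 or 4 (highest edgeR adjusted p 0.0871), while Jun, with a difference of 0.79 ± 0.37 (edgeR adjusted p = 0.110), was called without CONT SCI + Tiny replicate 1 (6.4e-05). The median difference of the 7 genes was 0.50 between the uninjured and 0.24 between the contused groups, beside -0.01 and -0.03 over all genes, with 6 and 4 of 7 positive. Without 1 rat these medians ranged from 0.25 (No SCI + Standard replicate 5) to 0.78 (No SCI replicate 4) and from 0.01 (CONT SCI + Tiny replicate 4) to 0.40 (CONT SCI + Tiny replicate 1). The uninjured groups of the 2 sets also differed in cage, which cannot be told apart from the set, while the contused groups carry the same labels of injury, cage and time and differ in the set and all that goes with it, depth included.

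Myc (ENSRNOG00000004500), a growth-related transcription factor, had its lowest mean in the No SCI livers, at 19.2, 28.1, 18.6 and 8.37 CPM (18.6 ± 8.08, n = 4). The CONT SCI livers held 17.8, 56.3, 30.8 and 16.7 CPM, the TX SCI livers 31.8, 18.8, 13.7 and 63.6 CPM, and the CONT SCI + SWW livers 80.9, 34.8, 35.9, 52.5 and 37.6 CPM. In each injured group of the Exercise set 1 or more rats exceeded every uninjured rat of that set. Myc passed edgeR's test in 0 of the 11 comparisons and DESeq2's in 0. By edgeR, 1 unadjusted p was under 0.05, for No SCI against No SCI + Standard, beside 57.6% of all genes.

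Nr4a1 (ENSRNOG00000007607), an orphan nuclear receptor that responds to hormones acting through cAMP, had the largest SD between rats of a group among the 7 genes. It stood at 0.629, 2.16, 16.7, 4.74 and 1.06 CPM in the CONT SCI + Large livers, at 10.6, 1.98, 1.38, 1.40 and 10.8 CPM in the CONT SCI + Tiny livers, and at 7.33, 9.15, 8.90, 6.89 and 61.7 CPM in the CONT SCI + SWIM livers. A single rat or a pair of rats stood above the rest in each of these groups. Uninjured rats held 1.71 to 10.8 CPM in the In-Cage set and 3.80 to 13.4 CPM in the Exercise set. Nr4a1 passed edgeR's test in 0 of the 11 comparisons. DESeq2 called it in 0, but gave it no adjusted p for CONT SCI + SWIM against CONT SCI or against CONT SCI + SWW. By edgeR, 2 unadjusted p were under 0.05, for TX SCI against No SCI and CONT SCI + SWIM against CONT SCI, beside 12.1% and 13.1% of all genes.

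Atf3 (ENSRNOG00000003745), a stress-responsive factor of the ATF/CREB family, stood at 16.1, 13.96, 11.7 and 3.91 CPM in the No SCI livers (11.4 ± 5.33, n = 4). The CONT SCI livers held 3.58, 1.48, 3.44 and 3.96 CPM (3.12 ± 1.11, n = 4) and the TX SCI livers 4.43, 2.98, 3.59 and 5.42 CPM (4.11 ± 1.06, n = 4). Uninjured rats (replicates 1 to 3) stood above all of these injured rats, and No SCI replicate 4 lay among them. The CONT SCI + SWIM livers held 6.83, 2.88, 4.70, 7.11 and 60.5 CPM, while the In-Cage groups overlapped, from 7.09 to 12.8 CPM in uninjured rats and from 1.62 to 29.98 CPM in contused rats.

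The comparisons that held the CONT SCI + Large rats gave no edgeR call among the 7 genes. Against No SCI + Standard, injury and cage differ together. For CONT SCI + Large against No SCI + Standard, 0 of 7 passed where 0.0337% of 11852 genes did, 1 had an unadjusted p under 0.05 beside 29.4% of all genes, and DESeq2 called 1 beside 8.01% of the genes it tested. The 4 genes behind that 0.0337% became 2020 without CONT SCI + Large replicate 1 and 0 without replicate 2. Fos had the smallest p there and Egr1 the next, with a difference of -1.24 ± 0.66 (SE) and an edgeR adjusted p of 0.226, and without CONT SCI + Large replicate 3 the Egr1 difference was -2.19. The median difference of the 7 genes was -0.20, beside -0.02 over all genes, and 6 of 7 were negative. The sign rested on single rats, since the median was 0.06 without CONT SCI + Large replicate 1 and 0.03 without replicate 5, each with 4 of 7 positive, and -0.999 without replicate 3, with 7 negative. For CONT SCI + Large against CONT SCI + Tiny, 0 of 7 passed, as did 0.0% of 11920 genes, 0 had an unadjusted p under 0.05 beside 2.9% of all genes, and DESeq2 called 0 beside 0.0174% of the genes it tested. The smallest p values were those of Junb (-0.93 ± 0.63) and Egr1 (0.97 ± 0.74), both with an edgeR adjusted p of 1.00, and without CONT SCI + Large replicate 3 the Egr1 difference was 0.02. The median difference was 0.20, beside 0.01 over all genes, and 5 of 7 were positive, but it was -0.61 without CONT SCI + Large replicate 3, with 6 of 7 negative.

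For CONT SCI against No SCI, 0 of 7 genes passed by edgeR, 4 had an unadjusted p under 0.05 beside 4.49% of all genes, and DESeq2 called 4 (Egr1, Fos, Jun and Atf3) beside 0.357% of the 17657 genes it tested. Besides Egr1, the smallest p was that of Atf3, with a difference of -1.87 ± 0.42 (SE) and an edgeR adjusted p of 0.398. Egr1 and Fos were the 2 of 7 genes without overlap downwards, against 1.32% of all genes. The median difference of the 7 genes was -1.18, beside -0.0025 over all 12482 genes, and 6 of 7 were negative, Myc being positive.

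For TX SCI against No SCI, 0 of 7 passed by edgeR where 0.0638% of 12530 genes did, 5 had an unadjusted p under 0.05 beside 12.1% of all genes, and DESeq2 called 3 (Egr1, Fos and Atf3) beside 1.65% of the genes it tested. Atf3 differed by -1.47 ± 0.38 (SE) and Egr1 by -1.36 ± 0.35, both with an edgeR adjusted p of 0.194. Without No SCI replicate 4, the lowest uninjured rat in all 7 genes, the Atf3 difference was -1.76 and passed (edgeR adjusted p = 0.0325). The median difference was -1.24, beside 0.02 over all genes, and 5 of 7 were negative, Junb and Myc being positive. The TX SCI and CONT SCI comparisons share their uninjured rats, and the TX SCI rats were sampled earlier after injury.

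Set against each other, the TX SCI and CONT SCI livers differed in 0 of 7 genes by edgeR (0.0321% of 12468 genes passed), in 2 at an unadjusted p under 0.05 (13.4% of all genes) and in Egr1 by DESeq2 (2.06% of the genes it tested). The 4 genes behind the 0.0321% became 234 without TX SCI replicate 4. Egr1 was the only one of the 7 without overlap upwards, as were 4.25% of all genes. The Egr1 difference was 1.10 ± 0.33 (SE, edgeR adjusted p = 0.205) and the Fos difference 1.02 ± 0.45 (edgeR adjusted p = 0.362). The median difference was 0.39, beside 0.01 over all genes, and 6 of 7 were positive, Nr4a1 being negative, and it was 0.24 without TX SCI replicate 4, with 5 of 7 positive.

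The comparisons of trained with sedentary contused rats share the CONT SCI rats. Fitted differences were positive for all 7 genes in both, and none passed. For CONT SCI + SWIM, 0 of 7 passed by edgeR and 0 by DESeq2, which gave Nr4a1 and Atf3 no adjusted p, where 0.008% of 12502 genes passed by edgeR and 1.45% of those tested by DESeq2. An unadjusted p under 0.05 was found for 3 of 7, beside 13.1% of all genes. Jun differed by 1.27 ± 0.46 (SE, edgeR adjusted p = 0.298) and Atf3 by 2.39 ± 0.91 (edgeR adjusted p = 0.314). Jun was the only one of the 7 without overlap upwards, as were 2.66% of all genes. Without CONT SCI + SWIM replicate 5 the Jun difference was 0.62 and the Atf3 difference 0.79. The median difference was 1.27, beside 0.02 over all genes. It was 0.62 without that rat and 0.61 with a replicate block, which also left that rat out, and the Fos difference was -0.01 in both. For CONT SCI + SWW, 0 of 7 passed by edgeR and 0 by DESeq2, where 0.759% of 12642 genes passed by edgeR and 5.13% of those tested by DESeq2. An unadjusted p under 0.05 was found for 1 of 7, beside 20.8% of all genes. The 96 genes called by edgeR became 0 without CONT SCI replicate 4 and 533 without CONT SCI + SWW replicate 5. Jun differed by 0.28 ± 0.11 (SE, edgeR adjusted p = 0.190) and Egr1 by 0.83 ± 0.41 (edgeR adjusted p = 0.288). The median difference was 0.69, beside 0.04 over all genes, and 0.42 without CONT SCI + SWW replicate 1, while the Atf3 difference was -0.06 without CONT SCI replicate 2.

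Between swimming and shallow water walking, 0 of 7 passed by edgeR and 0 by DESeq2 (again with no adjusted p for Nr4a1 and Atf3), where 0.0% of 12525 genes passed by edgeR and 0.08% of those tested by DESeq2. An unadjusted p under 0.05 was found for 2 of 7, beside 5.43% of all genes. Atf3 differed by 2.22 ± 0.81 (SE) and Jun by 0.99 ± 0.40, both with an edgeR adjusted p of 0.782. Without CONT SCI + SWIM replicate 5 the Atf3 difference was 0.62 and the Jun difference 0.34. The median difference was 0.59, beside -0.0020 over all genes, and 6 of 7 were positive, Myc being negative, but it was 0.02 without CONT SCI + SWIM replicate 5, with 4 of 7 positive, and 0.38 without CONT SCI + SWW replicate 1. The plot of fitted differences sets the 9 comparisons within sets side by side.

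**Figure D2:**
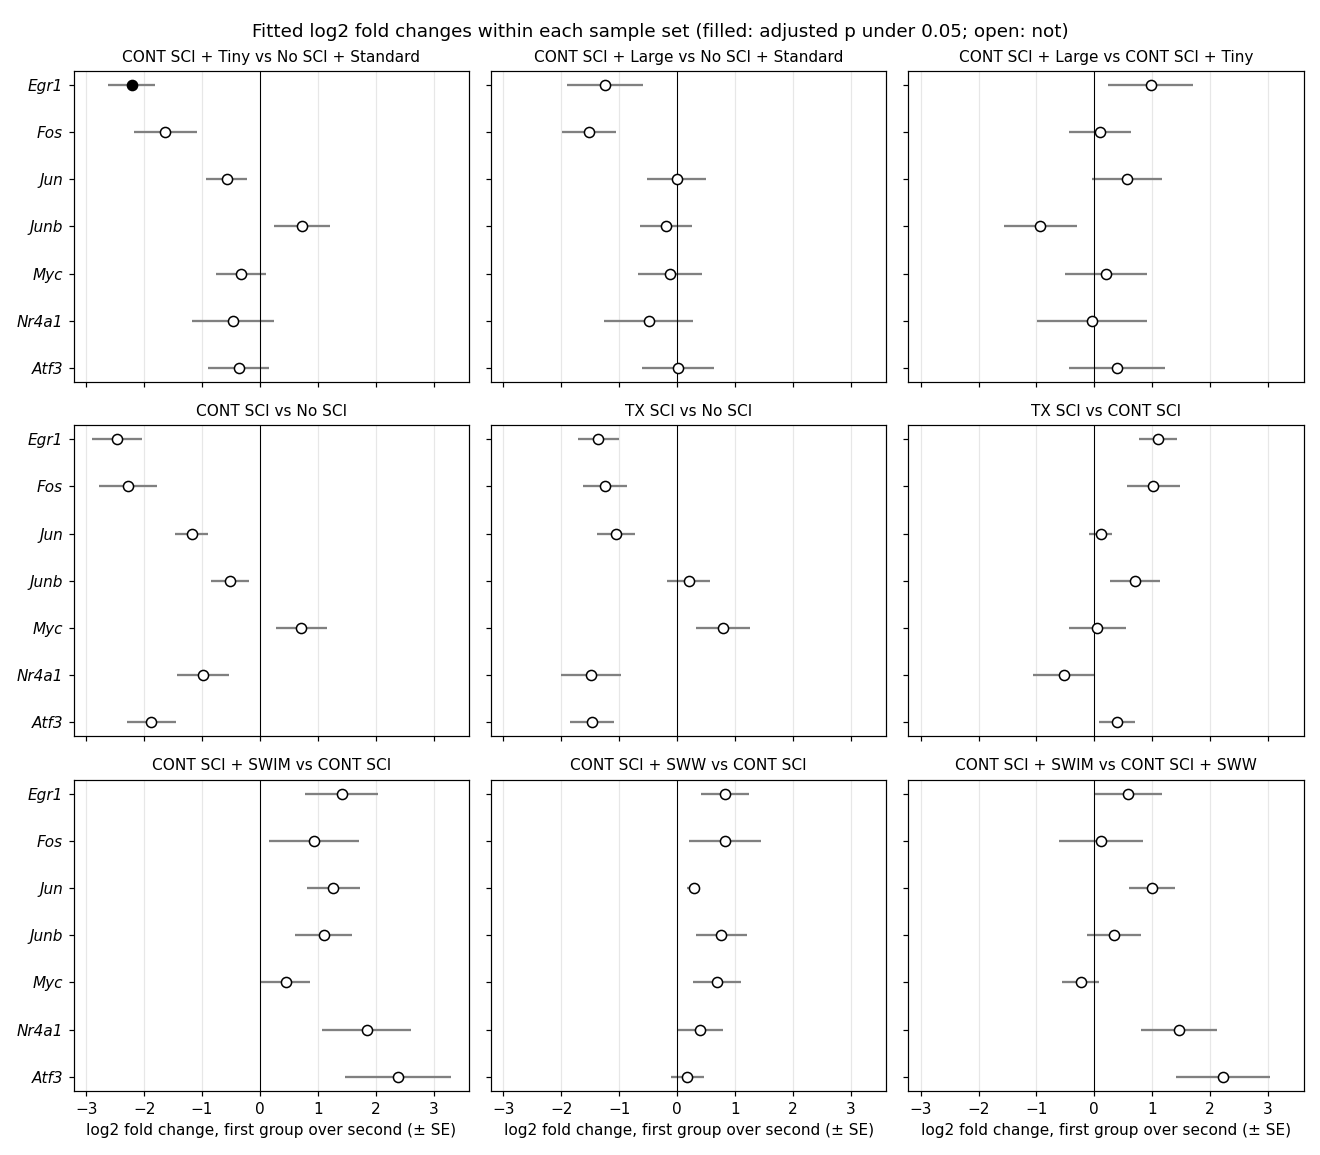
Fitted log2 fold changes (points) with their SE (bars) for the 7 genes in the 9 comparisons within a sample set, filled where the edgeR adjusted p was under 0.05. Egr1 in CONT SCI + Tiny against No SCI + Standard, at -2.21, is the single filled point, and all 7 points are positive in both comparisons of trained with sedentary contused rats, where Fos was at -0.01 without CONT SCI + SWIM replicate 5 and Atf3 at -0.06 without CONT SCI replicate 2.

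The 7 genes varied far more between rats of one group than most genes did. Their SD of log2(CPM + 1), pooled over the 8 groups, was between 0.68 for Jun and 0.99 for Nr4a1, beside a median of 0.24 and a 90th percentile of 0.42 over 9099 genes with a mean of at least 100 counts. Each of the 7 exceeded 98.1% to 99.5% of those genes. By group, the median SD of the 7 genes ran from 0.43 in TX SCI and 0.44 in No SCI + Standard to 1.16 in CONT SCI + SWIM and 1.33 in CONT SCI + Large. In CONT SCI + Large the highest rat exceeded the lowest 26.6-fold in Nr4a1, 18.5-fold in Atf3, 18.3-fold in Egr1 and 13.2-fold in Myc. Single rats decided some of these values and with them the order of the groups, since the median SD was 0.49 to 0.53 in TX SCI without any 1 rat, 0.16 in CONT SCI without replicate 2, 0.27 in No SCI without replicate 4, 0.44 in CONT SCI + Tiny without replicate 1, 0.65 in CONT SCI + SWIM without replicate 5 and 0.85 in CONT SCI + Large without replicate 3.

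A few rats were high or low in most of the 7 genes at once. CONT SCI + SWIM replicate 5 was the highest of its group in 6 genes and above the group mean in all 7, with 70.4 CPM of Egr1, 15.5 of Fos, 398 of Jun, 137 of Junb, 61.7 of Nr4a1 and 60.5 of Atf3. CONT SCI + Large replicate 3 was likewise highest in 6 genes and above the mean in 7, and CONT SCI + Tiny replicate 1 highest in 5 and above the mean in 7. On the low side, No SCI replicate 4 was lowest of its group in all 7 genes, and CONT SCI + Large replicate 1 and No SCI + Standard replicate 5 were lowest in 6. Depth and the number of genes detected were not extreme in the SWIM rat, which ranked 3rd of 5 in counted reads and 4th of 5 in genes detected. The study reported a smaller share of uniquely mapped reads for that library than for most others. CONT SCI + Large replicate 3 was 5th of 5 in counted reads and 3rd in genes detected, and No SCI replicate 4 was 1st of 4 in counted reads and 2nd in genes detected. The part of depth or of mapping in these patterns was not tested.

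**Figure D3:**
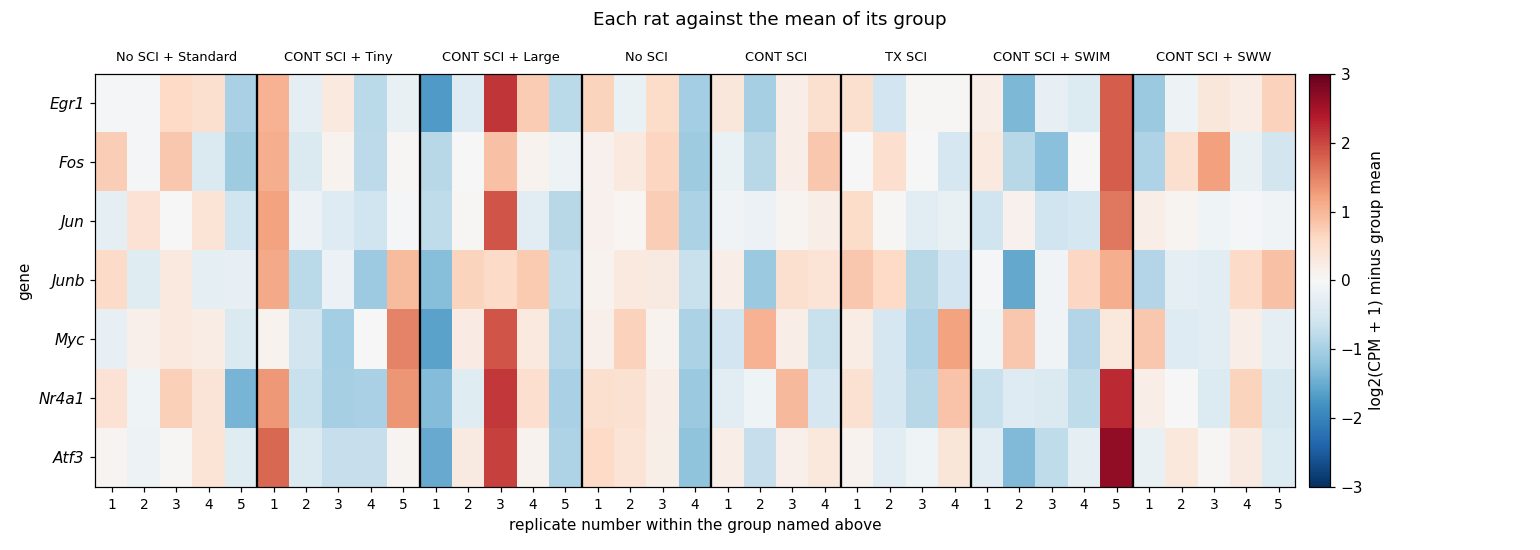
Colour gives log2(CPM + 1) minus the group mean for the 7 genes (vertical) in each of the 37 rats (horizontal, by group and replicate), red above and blue below the mean. Whole columns share a colour, red in CONT SCI + Large replicate 3 and CONT SCI + SWIM replicate 5 and blue in No SCI replicate 4.

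To describe how far the same rats were high in several genes, correlations of log2(CPM + 1) were computed with group means removed, over 21 pairs of genes in each set (42 in all), with permutation tests of the rats within groups and Benjamini-Hochberg adjustment over the pairs of a set. Both genes of a pair come from the same library. In the In-Cage set (15 rats) all 21 pairs were positive, with a median r of 0.756 and a range of 0.475 to 0.929, and 19 pairs had an adjusted p under 0.05 by Pearson's r and 18 by Spearman's rho. Jun with Atf3 was the highest pair, with r = 0.929 (permutation p = 2.7e-04, adjusted 0.00142) and rho = 0.836 (permutation p = 6.3e-04, adjusted 0.00441), and r was 0.769 without the 2 rats farthest from the median of Jun. Fos with Myc was the lowest, with r = 0.475 and rho = 0.496 (permutation p = 0.0696 and 0.0728, adjusted 0.0731 and 0.0765). Without the 2 farthest rats of each pair the median r was 0.691 and all 21 stayed positive.

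In the Exercise set (22 rats) the median r was 0.572 and the range -0.285 to 0.810, with 7 pairs at an adjusted p under 0.05 by r and 1 by rho. Egr1 with Atf3 was highest, with r = 0.810 (permutation p = 0.00125, adjusted 0.0131) and rho = 0.589 (permutation p = 0.0129, adjusted 0.0542), and r was 0.619 without the 2 rats farthest from the median of Egr1. Myc stood apart, since its pairs with Egr1, Fos and Junb were the 3 negative ones, of which Myc with Junb was lowest (r = -0.285, rho = -0.154, permutation p = 0.250 and 0.535, adjusted 0.292 and 0.565). Myc with Nr4a1, by contrast, had r = 0.584 (permutation p = 0.0117, adjusted 0.0381) and rho = 0.747 (permutation p = 0.00108, adjusted 0.0227), the single pair past the threshold by rho. Without the 2 rats farthest from the median of the first gene of each pair, the median r of the set was 0.384. The number of pairs past the threshold by r rested on single rats, being 3 without CONT SCI + SWIM replicate 5, 2 without No SCI replicate 4 and 12 without CONT SCI + SWIM replicate 2. The difference in correlation between the sets was not tested.

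**Figure D4:**
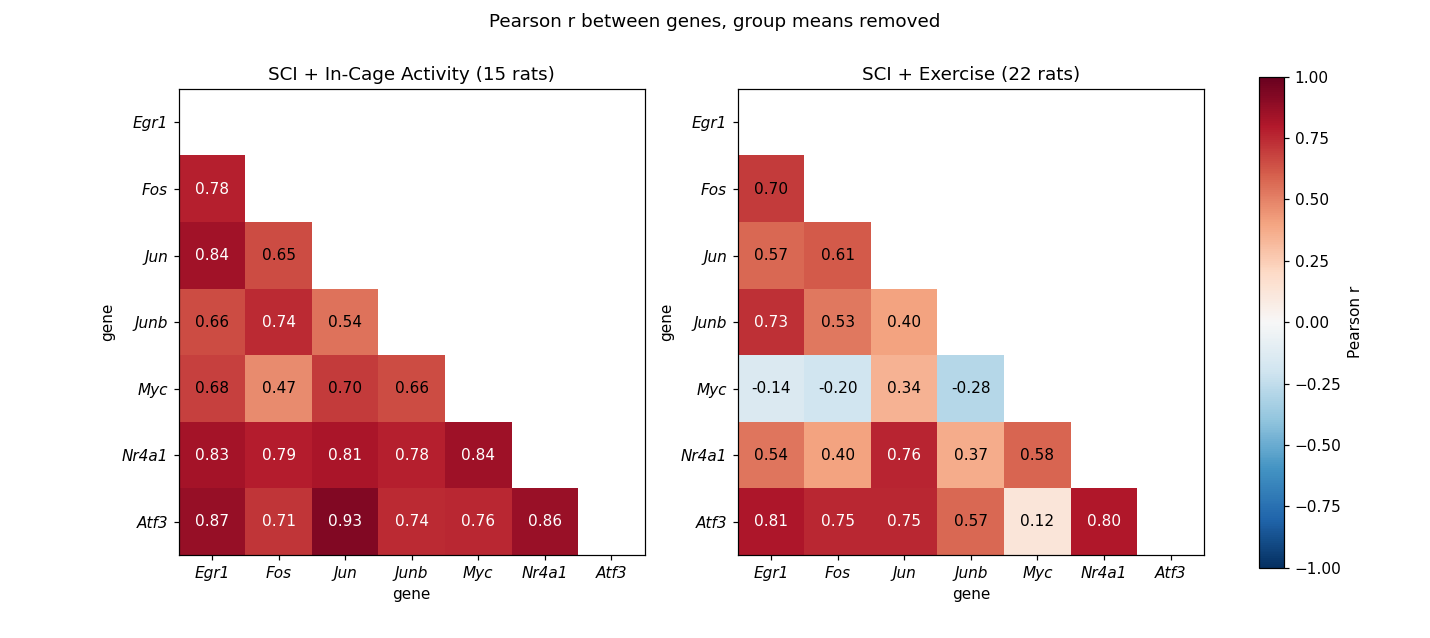
Pearson r for each pair of the 7 genes over the 15 In-Cage rats (left) and the 22 Exercise rats (right), after group means were removed, with red for positive and blue for negative values. All pairs are positive on the left (0.475 to 0.929), and the Myc row on the right holds the negative ones, down to -0.285.

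Among 9092 other genes with a mean of at least 100 counts, the closest to the mean of the 7 centred genes over the 37 rats were ENSRNOG00000020938 (r = 0.889) and ENSRNOG00000033433 (r = 0.858), and the most opposed were ENSRNOG00000030328 (r = -0.551) and ENSRNOG00000026963 (r = -0.549). In all, 43 genes exceeded an r of 0.5 and 5 an r of 0.7. These identifiers were not paired with names in the tables used here. The 2 closest genes kept their likeness within each set, with r = 0.942 and 0.855 in the In-Cage set and 0.810 and 0.867 in the Exercise set. The 2 most opposed had r = -0.642 and -0.569 in the In-Cage set and -0.475 and -0.584 in the Exercise set.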

How the data were processed

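Liver RNA of 37 rats was sequenced as single-end reads from stranded poly-A libraries. The authors aligned the reads to Rn6 with STAR and deposited raw counts per gene, made with HTSeq on the reverse strand setting without mitochondrial genes. FastQC 0.10.1 is named in the submitters' processing notes. Groups and replicate numbers came from the labels. The labels and the study's text differ on the start and length of training and on the collection time of the trained rats. Counts were fitted in R 4.3.3 with edgeR 4.0.16 (quasi-likelihood test, robust, TMM, default filter of 10 counts), each comparison on its own 2 groups, with Benjamini-Hochberg adjustment over all genes tested and a threshold of 0.05. Alternatives were DESeq2 1.42.0, RLE scaling, no filter, a replicate block, one fit per set, a pseudocount of 0.1 in place of 1 for correlations, and 100 fits that left out 1 rat. CPM used TMM-scaled totals of all 37 libraries. Correlations used 100000 permutations within groups. The test was checked on simulated counts. The 7 members and all lists were chosen with earlier results of these data known. Fitted differences are printed for genes past the threshold and, in each comparison, for the 2 of the 7 with the smallest p. The p-values of the fits set a difference between groups against the spread between rats. By the study's text, rats shared a cage with another rat of their own group. The labels do not name cage mates, and the fits treated them as separate rats. Promoters were matched by symbol, and a further list of immediate early genes was not analysed here.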

Additional observations from a re-analysis of the deposited data

Results flagged for a closer look

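In 13 of 56 groups of 4 or 5 rats for 1 gene, the highest rat stood apart from the rest of its group by Dixon's gap test (critical value 0.71 for 5 rats and 0.829 for 4), in 6 of the 7 genes. The gaps were taken on CPM and not on a log scale. Chance gives about 1 in 20 such groups only where values are normally distributed, which was not tested for CPM. The 13 therefore cannot be set against that rate. The 56 groups are also not independent, since the same rats recur across genes. Of the 13, 5 were CONT SCI + SWIM replicate 5, at 70.4 CPM of Egr1, 15.5 of Fos, 398.0 of Jun, 61.7 of Nr4a1 and 60.5 of Atf3, where the other 4 rats reached at most 22.0, 4.67, 145.0, 9.15 and 7.11 CPM. CONT SCI + Large replicate 3 gave 4, at 155.0 CPM of Jun, 70.7 of Myc, 16.7 of Nr4a1 and 30 of Atf3, above at most 42.1, 22.8, 4.74 and 7.98 CPM in the others. CONT SCI + Tiny replicate 1 gave 2, at 77.7 CPM of Jun and 21.3 of Atf3, above at most 32.4 and 6.1 CPM. The last 2 were 54.7 CPM of Myc in CONT SCI + Tiny replicate 5 and 10.1 CPM of Nr4a1 in CONT SCI replicate 3, above at most 20.2 and 4.19 CPM.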

How the results depend on the processing

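Fitted differences of genes past the threshold, and of the 2 with the smallest p in each comparison, kept their sign in every alternative. Those of other genes turned in places. Fos for CONT SCI + SWIM against CONT SCI was -0.01 without CONT SCI + SWIM replicate 5. Atf3 for CONT SCI + SWW against CONT SCI was -0.06 without CONT SCI replicate 2. The medians over the 7 genes turned for CONT SCI + Large against No SCI + Standard (from -0.20 to 0.06 or 0.03) and against CONT SCI + Tiny (from 0.20 to -0.61) when 1 rat was left out. Calls moved with the tool. DESeq2 called 2 of the 7 genes for CONT SCI + Tiny against No SCI + Standard (Egr1 and Fos), 1 for CONT SCI + Large against No SCI + Standard, 4 for CONT SCI against No SCI, 3 for TX SCI against No SCI and 1 for TX SCI against CONT SCI. With one fit per set, 0 passed for CONT SCI + Tiny against No SCI + Standard, where 891 of 11859 genes passed. With no filter 0 passed for CONT SCI against CONT SCI + Tiny, where 5489 of 17594 genes passed. Leaving out 1 rat gave 0 to 3 calls for CONT SCI + Tiny against No SCI + Standard, the 3 where 85 of 11959 genes passed. It gave 0 to 1 for TX SCI against No SCI, the 1 where 14 of 12661 genes passed. For CONT SCI against CONT SCI + Tiny it gave 0 to 2, the 2 where 5094 of 12178 genes passed. It gave 2 to 12 correlated pairs in the Exercise set, and median SDs of 0.157 to 0.809 (CONT SCI), 0.65 to 1.34 (CONT SCI + SWIM), 0.442 to 1.04 (CONT SCI + Tiny), 0.271 to 0.852 (No SCI) and 0.494 to 0.53 (TX SCI); leaving out rats for correlations and SDs was chosen after seeing the data. The cause of the other shifts was not tested. Whether replicate numbers pair the rats was left undecided. Same-numbered pairs ran from r = -0.546 to 0.497, and in none of the comparisons were all above 0.1. With a replicate block, 2 of the 7 genes were called for CONT SCI + Tiny against No SCI + Standard, where 1670 of 11859 genes passed. For No SCI against No SCI + Standard the block called 4 (3 higher, 1 lower), where 4685 of 12251 passed. That block left out No SCI + Standard replicate 5, which had no same-numbered No SCI rat. Over all genes, DESeq2 called 2523, 1375 and 3 genes in the 3 In-Cage comparisons where edgeR called 1479, 4 and 0, and 63, 291, 363, 254, 910 and 14 in the 6 Exercise comparisons where edgeR called 1, 8, 4, 1, 96 and 0. With 4 or 5 rats a group, differences within this spread may have been missed, which was not tested.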
